A study of Mus musculus with 12 samples.

Results

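The genes described are 36 chemokines and chemokine receptors of the mouse, 26 ligands and 10 receptors, chosen by gene name. They were followed in the mouse osteosarcoma lines Dunn and LM8 through early and late passages in culture. Of the 36, 35 had at least 1 probe whose accession could be matched, out of 20144 matched genes on the array, and they were covered by 40 of the 26581 matched probes. Cxcl11 had no matched probe. Chemokines are small secreted or membrane-bound proteins that draw cells along a gradient through G protein-coupled receptors. In osteosarcoma and other tumours they are known for recruiting macrophages and other leukocytes, and their receptors on tumour cells are studied for the organs in which metastases settle. Many inflammatory chemokine genes are switched on through NF-kB, and a group including Cxcl9, Cxcl10 and Cxcl11 through interferon.

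Dunn cells rarely metastasise in mice, whereas LM8 cells, which were obtained from Dunn by selection in animals, do so readily. The groups were Dunn_25 and Dunn_86 (Dunn cells at passages 25 and 86) and LM8_24 and LM8_91 (LM8 cells at passages 24 and 91). All were grown under the same conditions in DMEM/F12 with fetal calf serum, with no further treatment, and RNA from cultures short of confluence was hybridised to 12 single-colour Agilent arrays, 3 for each group. Late cells were grown on from the early ones, so that each line gives 1 history of passaging. The replicates of a group are described as independent cultures, with nothing said of separate passaging, so p-values measure the spread between cultures of that 1 history and the arrays.

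Levels are given as log2 of the processed signal relative to the 75th percentile of the array, so that 0 is a gene as bright as that percentile. A level of one probe cannot be set against that of another probe. A probe is detected on an array where the scanner software marked it well above background. A fold given as "at least" is set against the dimmest detected signal of the arrays at this scaling, and other processing can give a smaller one. The 75th percentile of signal ran from 253 to 522 on the Dunn_25 arrays, from 609 to 840 for Dunn_86, from 788 to 1148 for LM8_24 and from 1033 to 1699 for LM8_91. The dimmest detected probe of an array lay between -5.79 and -3.39 in Dunn_25 but between -7.05 and -6.37 in LM8_91, so that a weak transcript could be missed more easily in early Dunn cells. Replicate 1 of Dunn_86 stood apart, with a correlation of 0.919 to 0.923 with its replicates and a median signal of 81.8 against 17.02 on the dimmest array of its group. The 3 slides each held 1 array of every group, always at the same position, so that position and group cannot be told apart. Of 7 osteoblast markers with a probe, 6 were detected on at least 2 of 3 arrays in Dunn_25 and 7 in each other group. Of the macrophage markers, Itgam, Csf1r and Cd14 were detected in all 4 groups, whereas Ptprc was detected on 2 of 12 arrays, Adgre1 on 2 and Fcgr1 on none. Lyz2 was detected on 4 Dunn and 2 LM8 arrays. Single markers of other cell types, Cd3e of lymphocytes and Kdr of endothelium, were detected on every array.

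Most members were not detected. On at least 2 of 3 arrays, 5 of 35 members (14.3%) were detected in Dunn_25, 8 (22.9%) in Dunn_86, 8 in LM8_24 and 7 (20%) in LM8_91. Over all matched genes these shares were 53.9%, 59.7%, 61.2% and 63.4%. In all, 11 members, 8 ligands and 3 receptors, met this condition in at least 1 group. The ligands were Ccl2, Ccl9, Ccl17, Ccl25, Cxcl1, Cxcl5, Cxcl10 and Cx3cl1, and the receptors were Ccr7, Cxcr6 and Ackr3. Ccl25 and Cx3cl1 were the members detected on all 12 arrays. A further 16 members were detected on no array, among them Cxcl12, which holds stem cells and leukocytes in bone marrow, with both of its probes, Cxcl16, the ligand of Cxcr6, and the monocyte receptors Ccr1 and Ccr2. Cxcr4, the receptor of Cxcl12, was detected on 1 array, replicate 1 of Dunn_86, which was also the single array for Ccl7, Ccl22 and Cxcl2. An undetected gene has no measured level here, and such a gene may still be transcribed weakly or in few cells. In bulk RNA, fewer cells with a transcript and less of it per cell cannot be told apart.

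**Figure D1:**
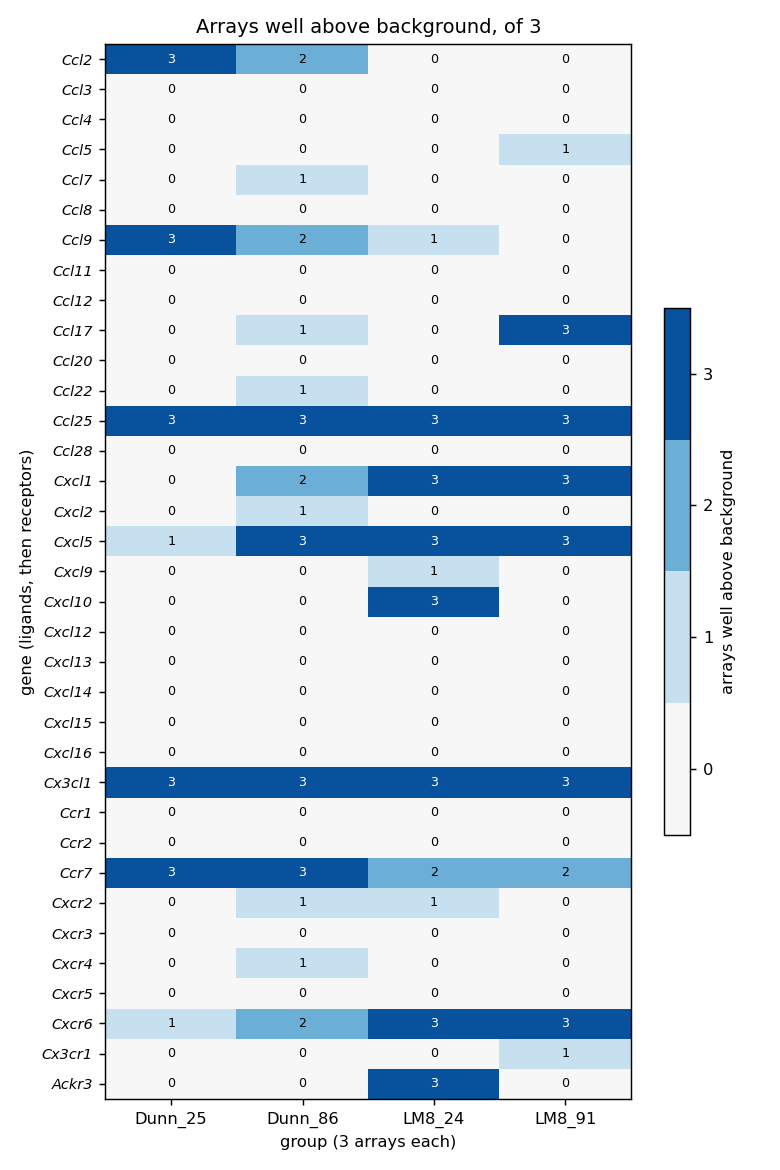
Number of arrays, of 3 in each group, on which each of the 35 members with a probe was well above background. Rows are genes, ligands first and receptors last, and columns are the 4 groups. Ccl2 and Ccl9 are dark (3 arrays) in Dunn_25 and paler (2 arrays) in Dunn_86. Cxcl10 and Ackr3 are dark in LM8_24, and Ccl25 and Cx3cl1 in all 4 columns, while 16 rows are at 0 throughout.

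Groups were compared with limma, and a gene was called when it differed over 2-fold at an adjusted p under 0.05 and was detected in the higher group. LM8 cells with passages pooled (6 arrays against 6) had lower levels of 4 of 35 members (11.4%), namely Ccl2, Ccl9, Cx3cl1 and Ccr7, and higher levels of none. Over all genes 6.4% were called lower and 10.6% in either direction. The share of members called in either direction was near this background. The share called lower was above it by so few genes that it is a description only. In early passages Ccl2 and Ccr7 were lower in LM8 (2 members, 5.71%, against 2.48% of all genes). In late passages no member passed (3.72% of all genes in either direction). At the unadjusted level (over 2-fold, with an unadjusted p below 0.05) 5 members passed (14.3%), all of them lower in LM8. Over all genes 11% passed at that level in either direction and 6.34% as lower. With so few genes this too is a description only. With passaging of LM8, Cxcl10 and Ackr3 fell (2 members, 5.71%, against 1.6% of all genes called lower). In Dunn cells no member passed (0.00497% of all genes, a single gene). At the unadjusted level 3 members (8.57%) passed in Dunn cells, Ccl2, Ccl9 and Cxcl5, against 4.42% of all genes.

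The median difference over the 35 members lay below that over all matched genes between the lines, at -1.55 against -0.68 with passages pooled, at -1.60 against -0.77 in early and at -1.42 against -0.57 in late passages. For passaging it was -0.71 against -0.35 in Dunn and -0.43 against -0.20 in LM8. Of the 35 members behind these medians, 24 were not detected on 2 arrays of any group. Markers of cell types that were little detected also had low pooled medians. These were -1.95 for epithelial markers (0 of 4 detected in each group), -1.26 for lymphocyte markers (1 of 4) and -1.06 for endothelial markers (1 or 2 of 4). Markers of osteoblasts (0.20) and macrophages (-0.15) lay above all genes. A low median was thus not particular to the members, and its cause was not tested. Over all probes, the median of the pooled difference between the lines was -0.80.

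**Figure D2:**
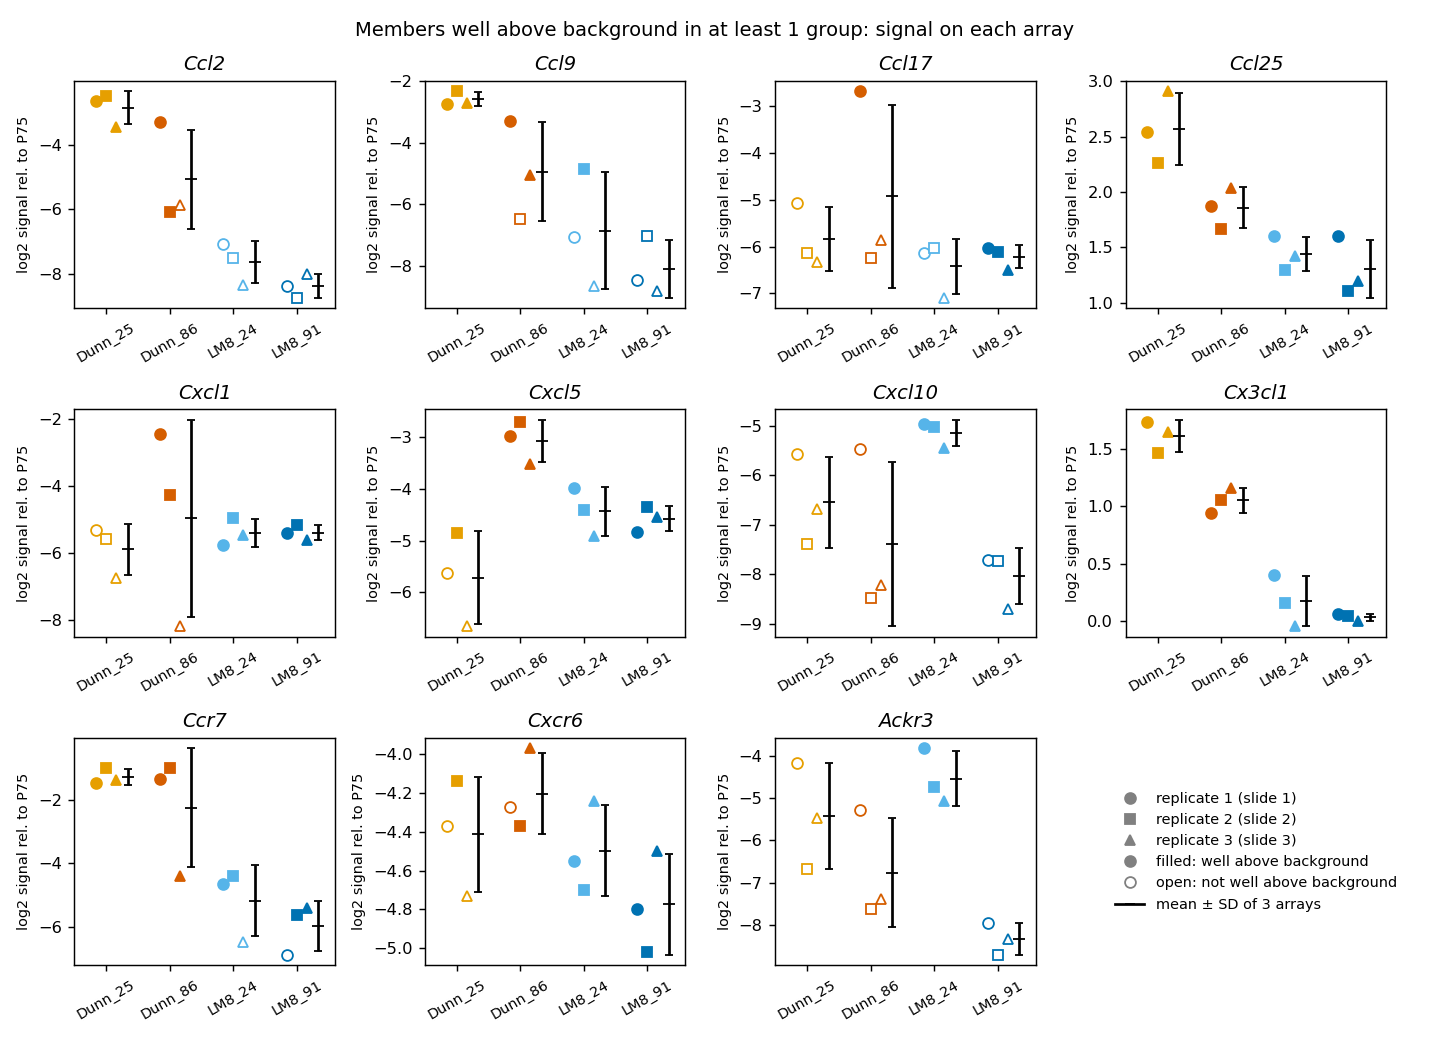
Level of the 11 members detected on at least 2 of 3 arrays of a group, in log2 of the signal relative to the 75th percentile (P75) of the array, on each of 12 arrays; the vertical scale differs between panels. Symbols stand for replicates (one slide each), filled symbols for arrays well above background, and bars for the mean ± SD of 3 arrays. All 6 LM8 arrays lie below all 6 Dunn arrays for 3 members, Ccl2, Ccl25 and Cx3cl1 (12.3% of all genes), and Cxcl10 and Ackr3 are filled in LM8_24 alone.

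Among CC ligands, Ccl2, the main attractant of monocytes, was measured in Dunn cells and not detected in LM8 cells. Ccl2 stood at -2.65, -2.47 and -3.43 on the Dunn_25 arrays, at -3.29, -6.07 and -5.86 on the Dunn_86 arrays, at -7.06, -7.50 and -8.35 on the LM8_24 arrays and at -8.37, -8.75 and -8.02 on the LM8_91 arrays. It was detected on 3 and 2 Dunn arrays and on none of the 6 LM8 arrays, and the highest LM8 array lay below the lowest Dunn array. In early passages Ccl2 was at least 11.2-fold lower in LM8 (log2 difference -4.79, SE 0.46, adjusted p = 0.00375), and the differences within the 3 slides were -4.42, -5.03 and -4.93. With passages pooled it was at least 5.87-fold lower (-4.05, SE 0.65, adjusted p = 0.00159). These differences were smaller, and were still called, with normexp background correction (-2.47 early and -1.83 pooled) and with a floor on dim signals (-3.00 early and -1.92 pooled). In late passages the difference of -3.31 (SE 0.80) had an adjusted p of 0.111. Between early and late Dunn cells the log2 difference was -2.23 (SE 0.83, adjusted p = 0.766), with replicate 1 of Dunn_86 inside the range of Dunn_25. Of the genes beside Ccl2 in its cluster on chromosome 11, Ccl7 was detected on 1 array and Ccl8, Ccl11 and Ccl12 on none.

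Ccl9, a ligand of Ccr1 known for its release by osteoclasts and their precursors, followed a like order of levels. Ccl9 stood at -2.73, -2.33 and -2.71 in Dunn_25, at -3.28, -6.49 and -5.06 in Dunn_86, at -7.08, -4.87 and -8.65 in LM8_24 and at -8.47, -7.03 and -8.81 in LM8_91. The lines overlapped, as replicate 2 of LM8_24, the one LM8 array on which Ccl9 was detected, lay above 2 of the Dunn_86 arrays. With passages pooled, Ccl9 was lower in LM8 by a fitted log2 difference of -3.72 (SE 0.83, adjusted p = 0.0109). Its size rests on signals not detected on 5 of 6 LM8 arrays and was -1.81 with normexp background correction and -2.02 with a floor on dim signals, both still called. The early comparison (-4.27, SE 0.89) missed the threshold at an adjusted p of 0.0524 and passed it without replicate 2 of Dunn_25 (adjusted p = 0.0175) or without replicate 2 of LM8_24 (adjusted p = 0.0228). It also passed under 5 of 10 alternatives of processing. In Dunn cells all 3 late arrays lay below the early ones, by -2.35 (SE 0.83) with an adjusted p of 0.766. Such an order, with detection in the early group, held for 3 of 35 members (8.57%) and for 16.9% of all genes.

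Ccl25, which guides T cell precursors to the thymus and lymphocytes to the small intestine, was bright on every array. Ccl25 stood at 2.54, 2.26 and 2.91 in Dunn_25, at 1.87, 1.67 and 2.04 in Dunn_86, at 1.60, 1.30 and 1.42 in LM8_24 and at 1.60, 1.11 and 1.20 in LM8_91. All LM8 arrays were below all Dunn arrays, and with passages pooled the difference was -0.84 (SE 0.23, adjusted p = 0.0242). At 1.79-fold it fell short of the 2-fold level, and it was close to the median of all probes (-0.80). A second probe of Ccl25, on a non-coding transcript of the gene and detected on 11 arrays, gave -0.50 (SE 0.25, adjusted p = 0.110). In early passages the first probe differed by -1.13 (SE 0.32, adjusted p = 0.0738), and by 0.35 in the opposite direction where the signals were not scaled.

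Ccl17, a ligand of Ccr4 that attracts T cells, was detected on all 3 LM8_91 arrays, at -6.03, -6.11 and -6.50, and on replicate 1 of Dunn_86, at -2.68. The other Dunn arrays lay between -6.33 and -5.06, and the LM8_24 arrays stood at -6.13, -6.04 and -7.10. No comparison of Ccl17 passed. Its detection in late LM8 cells thus came with levels that overlapped those of LM8_24, on arrays that reach down to weaker signals.

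Among CXC ligands, Cxcl10 was detected in early LM8 cells alone and fell with passaging. Cxcl10 attracts activated T cells through Cxcr3 and is a textbook target of interferon. Its levels were -4.97, -5.02 and -5.45 in LM8_24 and -7.70, -7.73 and -8.69 in LM8_91. It fell at least 2.92-fold (log2 difference -2.89, SE 0.33, adjusted p = 0.00682), by -2.72, -2.71 and -3.24 within the slides. With normexp background correction the difference was -0.72 and with a floor on dim signals -0.70, and in neither case was it called. In Dunn cells Cxcl10 was not detected, with signals at -5.57, -7.38 and -6.69 in Dunn_25 and at -5.48, -8.48 and -8.21 in Dunn_86. On replicates 1 and 3 of Dunn_25 a level like that of LM8_24 would have lain below or near the dimmest detected probe (-3.39 and -4.50), and the difference between early LM8 and early Dunn cells did not pass (1.40, SE 0.50, adjusted p = 0.0818). Cxcl9, which lies beside Cxcl10 on chromosome 5 and is also interferon-induced, was detected on 1 array, replicate 1 of LM8_24, at -4.53.

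The promoter of Cxcl10 is shown because its gene fell and because it held both motifs searched. The stretch covers bases -223 to -84 before the start of the gene, at chr5:92348973-92349112 on the minus strand of GRCm38.p6, from the promoter table of RefSeq. Capitals mark, in order, the match to an interferon response motif (GAAA, any 2 bases, GAAA) and 2 stretches with matches to an NF-kB-type motif (GGG, any 5 bases, CC), each searched on both strands.

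Cxcl10: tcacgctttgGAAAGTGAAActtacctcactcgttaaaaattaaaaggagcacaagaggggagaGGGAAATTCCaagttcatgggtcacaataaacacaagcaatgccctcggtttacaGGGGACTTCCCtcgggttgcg

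In the window from 250 bases before to 50 after the start, the interferon response motif was present in 3.44% of 32851 promoters and the NF-kB-type motif in 50.8%, so that the second is common by its letters alone. Of the 26 members with a promoter entry, the interferon response motif was in 2 (7.69%), Cxcl10 and Cxcl14, against 3.99% of all genes with an entry. Cxcl14 was detected on no array. The NF-kB-type motif was in 14 of 26 members (53.8%), against 53.5% of all genes with an entry. A match is a description of the letters and not a site of binding.

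For Cxcl1, a ligand of Cxcr2 that attracts neutrophils, no comparison passed. It was detected on all 6 LM8 arrays, at -5.77, -4.94 and -5.45 in LM8_24 and at -5.39, -5.16 and -5.61 in LM8_91. In Dunn_86 it spread from -2.44 and -4.27, both detected, to -8.18, and in Dunn_25 it was not detected, at -5.32, -5.59 and -6.75. The pooled difference was 0.04 (SE 0.75, adjusted p = 0.970). Cxcl2, its close relative and neighbour on chromosome 5, was detected on replicate 1 of Dunn_86 alone. Their promoters are shown side by side because the stretches share GGGAATTTCC, a match to the NF-kB-type motif, although the genes differed in detection. Capitals mark every match to that motif on either strand, with overlapping matches run together; the stretches are chr5:90891145-90891194 (plus strand, bases -100 to -51) for Cxcl1 and chr5:90903792-90903841 (plus strand, bases -107 to -58) for Cxcl2, in GRCm38.p6 from RefSeq.

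Cxcl1: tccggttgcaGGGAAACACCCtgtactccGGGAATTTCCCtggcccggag
Cxcl2: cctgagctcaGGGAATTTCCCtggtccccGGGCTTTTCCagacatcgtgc

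Cxcl5, another neutrophil attractant that signals through Cxcr2, was higher on every late than on every early Dunn array, without passing the adjusted test. Such an order, with detection in the late group, held for 1 of 35 members (2.86%) and for 3.35% of all genes. Cxcl5 stood at -5.63, -4.86 and -6.66 in Dunn_25, with 1 array detected, and at -2.98, -2.71 and -3.51 in Dunn_86, with all 3 detected. In LM8 it was detected on all arrays, at -3.97, -4.41 and -4.91 in LM8_24 and at -4.83, -4.34 and -4.54 in LM8_91. The passage difference in Dunn was 2.65 (SE 0.55, adjusted p = 0.456), with 2.65, 2.15 and 3.15 within the slides. It was called in 1 fit over all 12 arrays and turned to -0.22 with normexp background correction. In LM8 the passage difference was -0.14 (SE 0.29), and the difference between the passage effects of the lines was -2.79 (SE 0.63, adjusted p = 0.153). No member passed this interaction test, against 0.616% of all genes, and 2 members, Cxcl5 and Ackr3 (the latter undetected in Dunn), passed at the unadjusted level, against 4.98%. Cxcr2, the shared receptor of Cxcl1, Cxcl2 and Cxcl5, was detected on 2 of 12 arrays, 1 of Dunn_86 and 1 of LM8_24.

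Cx3cl1 (fractalkine), a membrane-bound ligand that captures cells with Cx3cr1, was detected on all arrays and was lower in LM8. Cx3cl1 stood at 1.73, 1.46 and 1.65 in Dunn_25, at 0.94, 1.05 and 1.16 in Dunn_86, at 0.40, 0.16 and -0.04 in LM8_24 and at 0.06, 0.04 and -0.00 in LM8_91. From high to low the group levels followed this order, the lines did not overlap, and the 2 LM8 groups did not differ beyond their spread. With passages pooled Cx3cl1 was 2.35-fold lower in LM8 (-1.23, SE 0.19, adjusted p = 0.00143). Among the called members this was the difference nearest to the median of all probes (-0.80), from which it lay -0.43 away; with quantile normalization it was -1.20 and without scaling of the arrays -0.04. In single passages it was -1.44 (SE 0.30, adjusted p = 0.0512) in early cells, where the unscaled value turned to 0.05, and -1.02 (SE 0.20, adjusted p = 0.0716) in late cells. Of 10 alternatives of processing, Cx3cl1 was called under 6 in early and under 5 in late cells. Its receptor Cx3cr1 was detected on 1 array, of LM8_91. The genes on either side of Cx3cl1 on chromosome 8, Ccl22 and Ccl17, were detected on 1 and 4 arrays and did not pass in any comparison.

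Of the receptors, Ccr7, through which lymphocytes and dendritic cells home to lymph nodes, was lower in LM8. Ccr7 stood at -1.48, -0.99 and -1.39 in Dunn_25, at -1.35, -1.01 and -4.40 in Dunn_86, at -4.65, -4.40 and -6.45 in LM8_24 and at -6.87, -5.61 and -5.40 in LM8_91. It was detected on all Dunn arrays and on 2 of 3 arrays in each LM8 group, and replicate 3 of Dunn_86 reached down to the highest LM8 array. With passages pooled Ccr7 was 13.9-fold lower in LM8 (-3.79, SE 0.61, adjusted p = 0.00175). Under other processing the pooled difference was as small as -2.45 and was still called. In early passages Ccr7 was 14.7-fold lower (-3.88, SE 0.58, adjusted p = 0.0199), with -3.17, -3.41 and -5.06 within the slides. Under other processing the early difference was as small as -2.39. This early call was lost with the slide as a replicate block (adjusted p = 0.0535), with the methods' t-test after adjustment (adjusted p = 0.0736), without replicate 1 of LM8_24 (adjusted p = 0.0791) and without replicate 3 of Dunn_25 (adjusted p = 0.0989). The late difference of -3.71 (SE 1.01) had an adjusted p of 0.141, and of 0.0483 without replicate 3 of Dunn_86.

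Ackr3, an atypical receptor that takes up Cxcl12 and Cxcl11 without G protein signalling, was detected in early LM8 cells alone, as was Cxcl10. Ackr3 stood at -3.82, -4.74 and -5.07 in LM8_24 and at -7.96, -8.71 and -8.34 in LM8_91, a fall of at least 4.44-fold (log2 difference -3.80, SE 0.37, adjusted p = 0.00398). With normexp background correction the difference was -0.98 and with a floor on dim signals -1.30, and in neither case was it called. Within the slides its differences were -4.13, -3.98 and -3.28. In Dunn cells it was not detected, with signals at -4.16, -6.67 and -5.47 in Dunn_25 and at -5.29, -7.63 and -7.38 in Dunn_86. On replicates 1 and 3 of Dunn_25 the dimmest detected probe lay at -3.39 and -4.50. A level like that of LM8_24 could thus go undetected there. The difference in Ackr3 between early LM8 and early Dunn cells did not pass (0.89, SE 0.68, adjusted p = 0.332), and the arrays overlapped. As neither Ackr3 nor Cxcl10 was detected on a Dunn array, there is no measured change in Dunn cells to set beside their falls in LM8.

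Cxcr6, the receptor of Cxcl16 on activated T cells, showed little movement. It stood between -4.73 and -4.14 in Dunn_25, between -4.37 and -3.97 in Dunn_86, between -4.70 and -4.24 in LM8_24 and between -5.02 and -4.50 in LM8_91, and was detected on 1, 2, 3 and 3 arrays. The pooled difference of -0.32 (SE 0.19) had an adjusted p of 0.177.

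**Figure D3:**
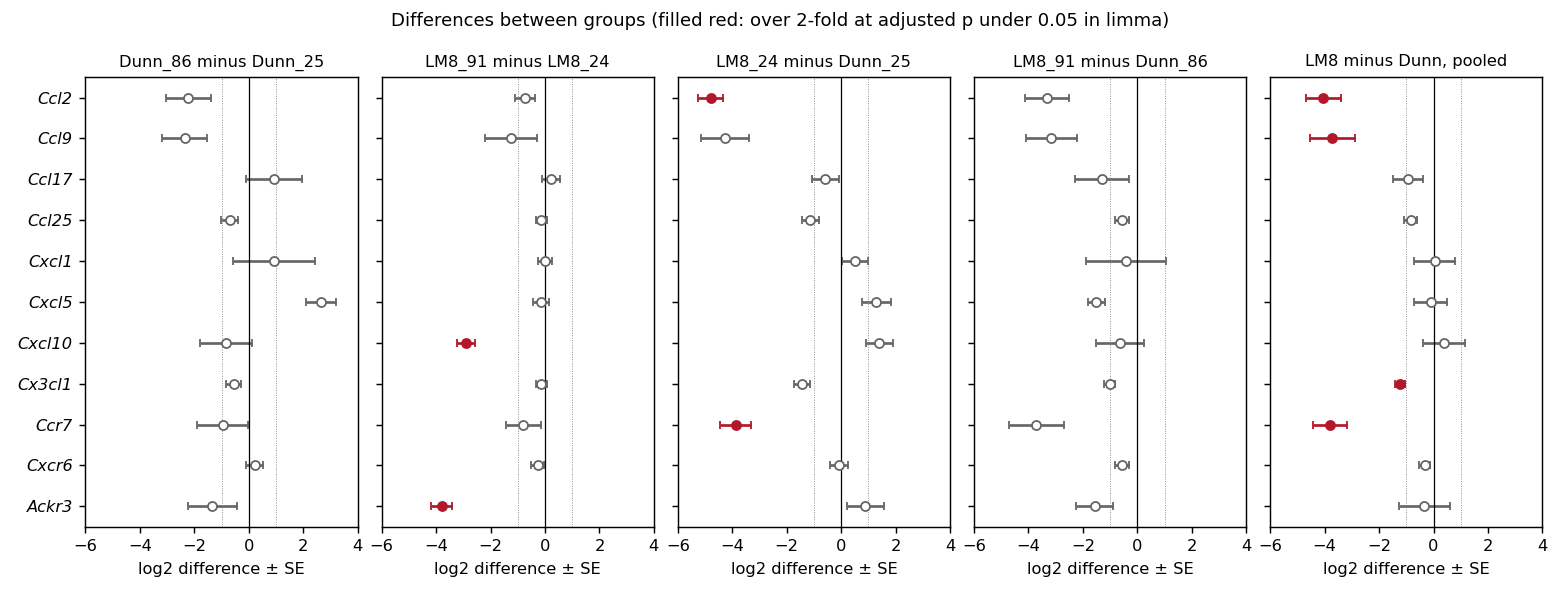
Log2 difference ± SE from limma for the 11 members in 5 comparisons; filled red points passed over 2-fold at an adjusted p under 0.05 and dotted lines mark 2-fold. Red points stand at Ccl2 and Ccr7 for LM8_24 minus Dunn_25, at Ackr3 and Cxcl10 for LM8_91 minus LM8_24, and at Ccl2, Ccl9, Cx3cl1 and Ccr7 for the pooled lines, and every one lies left of 0.

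Other chemokine genes on a list outside the 36 were examined for the same comparisons. Of 11 other ligands with a probe, none passed in any of the 6 comparisons, including Ccl19, a ligand of Ccr7, and at the unadjusted level 1 passed in each of 3 comparisons. Of 13 other receptors, 2 were lower in pooled LM8 cells (6.4% of all genes), 1 was lower in early LM8 cells (2.48%), 1 in late LM8 cells (2.51%), and 1 rose with passaging in LM8 (0.928%); with so few genes these counts are a description. Ackr4, an atypical receptor that takes up Ccl19, Ccl21 and Ccl25, was detected on all Dunn arrays, at -0.34, -0.37 and 0.35 in Dunn_25 and at 0.19, -0.11 and -0.51 in Dunn_86. In LM8_24 it stood at -4.94, -4.65 and -5.30 and in LM8_91 at -6.15, -7.44 and -8.04, with 1 late array detected. It was lower in LM8 in early (-4.85, SE 0.36, adjusted p = 0.00164), late (-7.07, SE 0.54, adjusted p = 0.00427) and pooled comparisons (-5.96, SE 0.54, adjusted p = 2.24e-05), and each of these calls held under all 10 alternatives and with any 1 array left out. Ackr2, which takes up inflammatory CC chemokines, was lower in LM8 with passages pooled (-1.72, SE 0.36, adjusted p = 0.00808), a call lost without scaling. Ccr8 rose with passaging in LM8 from undetected to detected on 3 arrays, by at least 1.84-fold (2.39, SE 0.27, adjusted p = 0.00651), a call that held under 5 of 10 alternatives.

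Of 21 genes of NF-kB and the signals above it, 2 were lower and 1 was higher in pooled LM8 cells, near the shares of all genes (6.4% and 4.19%). Nfkb1, the precursor of p50, stood between 0.53 and 1.04 on the Dunn arrays and between -1.61 and -0.68 on the LM8 arrays, and was 3.57-fold lower in LM8 (-1.84, SE 0.21, adjusted p = 1.31e-04), a call lost without scaling. Nfkb1 was also called lower in early (-1.58, SE 0.30, adjusted p = 0.0422) and late lines (-2.09, SE 0.23, adjusted p = 0.013). Nfkb2 was lower by a log2 difference of -1.09 (SE 0.23, adjusted p = 0.00893) and lost its call without replicate 3 of Dunn_25 and with the percentile of detected probes, normexp or no scaling. Tlr4, the receptor of bacterial lipopolysaccharide, was higher in LM8 (1.10, SE 0.30, adjusted p = 0.0228), a call lost without replicate 1 of Dunn_86 and with quantile normalization or normexp. Tlr4 was also called higher in late lines (1.48, SE 0.24, adjusted p = 0.0413). In early lines 1 of the 21 genes was called lower (2.48% of all genes). In late lines 2 were called lower (2.51%) and 1 higher (1.21%). Il6, an NF-kB target, was detected on 2 arrays of Dunn_86 and on none of LM8, and was at least 2.12-fold lower in late LM8 cells (adjusted p = 0.0145), with the call kept in 1 of 6 fits that left out an array and under 5 of 10 alternatives. The median difference of the list was -0.53, against -0.68 over all genes.

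Of 10 interferon genes, Irf9 and Irf7 fell with passaging in LM8, as Cxcl10 did, and none rose (1.6% of all genes were called lower). Irf9, the DNA-binding part of the interferon-stimulated factor, stood at 1.08, 1.06 and 0.49 in LM8_24 and at -1.31, -1.40 and -1.18 in LM8_91 (-2.17, SE 0.23, adjusted p = 0.00557), and its call held with any 1 array left out and under 9 of 10 alternatives, all but the methods' t-test. Irf7 stood at -2.23, -2.23 and -3.61 in LM8_24 and at -5.00, -5.10 and -5.13 in LM8_91 (-2.39, SE 0.39, adjusted p = 0.0326), and its call held in 1 of 6 such fits and under 3 of 10 alternatives. No interferon gene passed with passaging of Dunn, at either level. There Irf9 stood at 0.41, 0.75 and 0.85 on early and at -0.47, -0.38 and -0.11 on late arrays, a 1.99-fold difference (-0.99, SE 0.30, adjusted p = 0.733), and its passage effects were not shown to differ between the lines (-1.18, SE 0.34, adjusted p = 0.363). The median of the list for LM8 passaging was -0.44, against -0.20 over all genes.

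Among 26 genes of receptor signalling and ligand processing, Grk5, a kinase that dampens receptors, was lower in pooled LM8 cells (-1.15, SE 0.18, adjusted p = 0.00156), a call lost with the percentile of detected probes or no scaling. Grk5 was the 1 gene of the 26 called there, against 6.4% of all genes called lower. Rgs2, an inhibitor of G protein signalling, was detected on all arrays of Dunn_25, LM8_24 and LM8_91 and on none of Dunn_86. In early passages Rgs2 was lower in LM8 (-1.69, SE 0.33, adjusted p = 0.0452). It was the 1 gene of the 26 called there, against 2.48% of all genes called lower. The early Dunn arrays stood at 0.34, -0.14 and -0.51 and the late ones, not detected, at -4.09, -7.84 and -6.94, at least 40.5-fold lower (adjusted p = 0.343). The test of a difference between the passage effects of the lines passed (adjusted p = 0.0190), with a size that is not measured because Dunn_86 was not detected. Rgs2 was the 1 gene of the 26 that passed it, against 0.616% of all genes. Of the cell type markers, Lyz2, of macrophages, was lower in pooled LM8 cells (-2.23, SE 0.70, adjusted p = 0.0289). This call was kept in 4 of 12 fits that left out an array and under 6 of 10 alternatives. Of the 7 macrophage markers with a probe, Lyz2 was the 1 called there, against 6.4% of all genes called lower. The median pooled difference of these markers was -0.15, against -0.68 over all genes. Alpl, of osteoblasts, was higher in pooled LM8 cells (1.01, SE 0.37, adjusted p = 0.0444). Its call was kept in 3 of 12 fits that left out an array and under 6 of 10 alternatives. Against 4.19% of all genes called higher, Alpl was the 1 called of 7 osteoblast markers, whose median pooled difference was 0.20. Others went the other way: Ibsp (-1.26) and Spp1 (-1.20) were lower in early LM8 cells at the unadjusted level, without passing the adjusted test. The part of these markers in the differences of Ccl2, Ccl9 and Ccr7 was not tested.

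**Figure D4:**
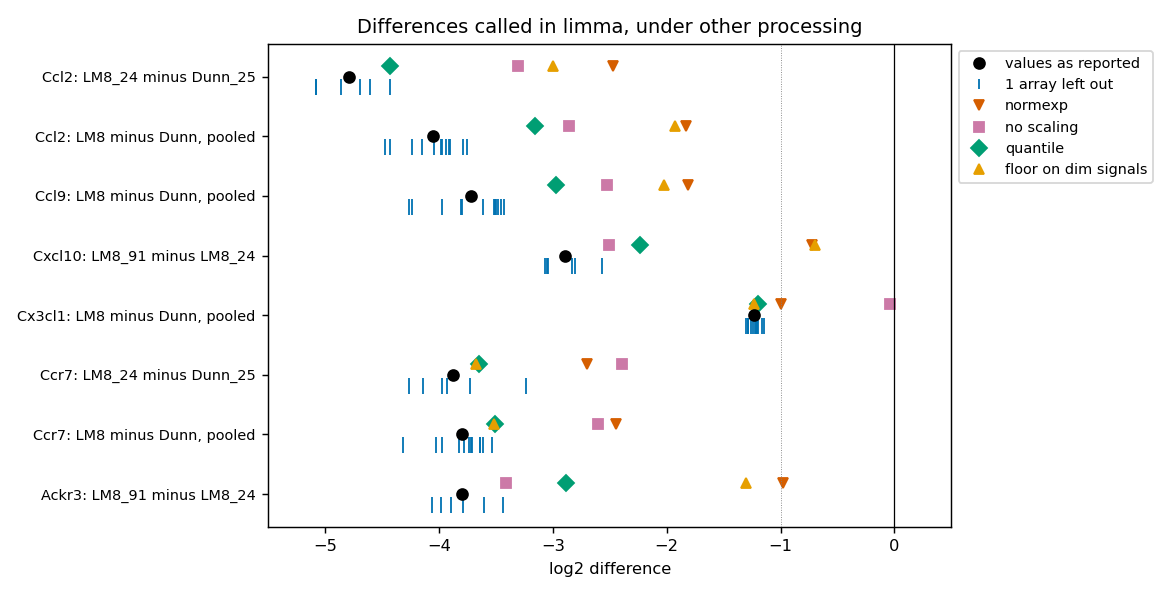
Log2 differences of the 8 called results as reported (black) and under other processing: with 1 array left out, normexp background correction, no scaling, quantile normalization and a floor on dim signals. All points lie left of 0; the dotted line marks 2-fold, and Cxcl10, Cx3cl1 and Ackr3 have points to the right of it.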

How the data were processed

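The authors deposited the Agilent Feature Extraction 10.7.3 output of each array, in which a spot's processed signal is its intensity with the background subtracted, not scaled between arrays. The authors' deposited table holds the same intensity, rounded (all spots within 1% of the scanner values). Well-above-background flags, a yes or no score per spot, were used as deposited. The RNA was extracted with RNeasy per the labels and with TriReagent per the study's methods. The array design was made for mm9; names come from RefSeq genes of GRCm38.p6.

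Spots marked as outliers were dropped, as were controls, and the 43020 spots of the design gave 39429 probes, each the average of its spots. Log2 signals were scaled to the 75th percentile of each array. A gene with several probes is given by the probe with the highest mean. Groups were compared with limma 3.58.1 (lmFit and eBayes, R 4.3.3) on the arrays compared only, with Benjamini-Hochberg adjustment over probes; the interaction used all 12 arrays. A call needs detection on 2 of 3 (4 of 6) arrays of the higher group. Where the dimmer group was detected on no array, folds are lower bounds against the higher of the dimmest detected signal of each array and the probe's own signal.

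Values are given on every array for members called or detected on at least 2 of 3 arrays of a group, and list genes are named where called. Members and lists were chosen with earlier results of these data known. In simulated data 100 probes were changed by a log2 of 1.5, 100 by 2, and the rest were left without a difference. Of those changed by 2, the adjusted threshold recovered 0% for the passages of Dunn (37164 probes) and 71% for those of LM8 (38840 probes). It recovered 0% for early, 24% for late and 90% for pooled lines. The adjusted threshold depends on how many probes differ, so these shares do not carry over to the data. In the data, 3.8% of all genes were called in early lines. The number of arrays limits the precision.

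Replicate numbers mark the slide in the scanner files. Of 18 pairs of arrays with the same number, 12 had deviations from the group means that correlated over 0.1 (lowest -0.23, highest 0.68). Alternatives were quantile normalization, another percentile, normexp (on median spot and background signals, offset 50), the unscaled table, a floor, a filter on dim probes, the mean of probes, 1 fit over all arrays, the slide as a replicate block, the methods' t-test, and leaving out each array. Human lines were not analysed here. Protein sequences were not used here.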

Additional observations from a re-analysis of the deposited data

Results flagged for a closer look

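Among the 6 arrays of a line, 5 members had 1 array whose gap to the others was large against the whole range. For 70 such groups of arrays, chance flags about 1 in 20. Ccr7 stood at -4.40 on replicate 3 of Dunn_86 and between -1.48 and -0.99 on the other Dunn arrays, and this array was detected, as were the others. Ccl17 stood at -2.68 on replicate 1 of Dunn_86 and between -6.33 and -5.06 on the other Dunn arrays. Cxcl9 stood at -4.53 on replicate 1 of LM8_24, where it was detected, and between -8.08 and -7.56 on the other LM8 arrays. Ccl3, at -9.00 on replicate 2 of LM8_91, and Ccl12, at -7.47 on replicate 1 of LM8_24, were detected on no array.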

How the results depend on the processing

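The 4 members called between pooled lines stayed at 3 or 4 called under every alternative and at 4 with any 1 array left out. The replicate block changed 1 other count of members called, from 2 to 1 in early lines (Ccl2 kept its call and Ccr7 lost it). For LM8 passaging, 2 called members became 0 with normexp, a floor on dim signals or the methods' t-test and 1 (Ackr3) in 1 fit over 12 arrays, where Cxcl10 had an adjusted p of 0.181. For early lines, 2 became 5 with quantile normalization, the unscaled table, the floor, the filter on dim probes or the fit over 12 arrays, and 4 with normexp. For late lines, 0 became 2 with quantile normalization or the floor, 1 with normexp or the t-test, 4 with the filter and 3 in the fit over 12 arrays. For Dunn passaging, 0 became 1 (Cxcl5) in the fit over 12 arrays, and for the interaction 0 became 2 with quantile normalization (Ccl2 and Cxcl10) and 1 with the floor (Cxcl5). At the unadjusted level, 3 members became 1 in Dunn with the percentile of detected probes, the unscaled table or the t-test, and 2 became 0 in LM8 with normexp and 1 with the floor. With 1 array left out, called members ran from 1 to 6 in early lines (6 without replicate 2 of Dunn_25, 1 without its replicate 3 or replicate 1 of LM8_24), from 0 to 2 in late lines (2 without replicate 1 of Dunn_86), from 2 to 2 in LM8 passaging, from 4 to 4 in pooled lines and from 0 to 0 in Dunn passaging and the interaction; at the unadjusted level they ran from 1 to 3 in Dunn and from 2 to 3 in LM8.

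Differences turned sign without scaling for early lines in Ccl25 (0.35) and Cx3cl1 (0.046), and with normexp for Cxcl5 in Dunn passaging (-0.22) and early lines (-1.16), Cxcl10 in early lines (-1.32) and Ackr3 in the interaction (0.26). Pooled Cx3cl1 fell under 2-fold with the percentile of detected probes (-0.87), normexp (-0.999) and no scaling (-0.04). The causes were not tested. Dunn_25 arrays had the weakest signal over background, which limits what was detectable there.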
